A study of Homo sapiens with 6 samples.

Results

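The genes that write, copy and erase DNA methylation, with the remodeler pair HELLS and CDCA7, were examined in MV4-11 cells, an established human acute myeloid leukemia (AML) line, after inhibition of the WNK kinases. The 10 members, of 20348 genes in the table, were chosen by their roles in DNA methylation, with results of this same Control and WNK463 comparison already known. They are *DNMT1*, *UHRF1*, *UHRF2*, *DNMT3A*, *DNMT3B*, *HELLS*, *CDCA7*, *TET1*, *TET2* and *TET3*, each of which had a single row in the table. Their differences between the groups are therefore given as a description, without a p-value. Control cells (3 samples) were a blank control, and whether they received vehicle is not stated. WNK463 cells (3 samples) received 1 μM of WNK463, a small molecule inhibitor of WNK kinases, for 48 h. All samples are of 1 cell line at a single dose and time, so a difference between cell lines or over time cannot be read from them, and in bulk RNA fewer expressing cells and less RNA per cell cannot be told apart. Methylation of DNA itself was not analysed here.

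In mammals DNA methylation sits mainly on cytosines of CpG sites. After replication the new strand lacks the mark, UHRF1 binds the hemimethylated site and DNMT1 restores it, while DNMT3A and DNMT3B can place methylation where there was none. HELLS is a chromatin remodeling ATPase that CDCA7 brings to DNA, and loss of HELLS, CDCA7, ZBTB24 or DNMT3B causes the ICF syndrome, in which satellite repeats lose methylation. TET1, TET2 and TET3 oxidize methylcytosine as the first step of its removal, and TET2 and DNMT3A are genes often mutated in AML.

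The libraries held between 14915745 and 17411780 counts. Of 10 myeloid leukemia markers, 8 were at 1 TPM or more in every sample, among them *FLT3*, *CD33* and *SPI1*, while *ANPEP* was below 1 TPM in all. Their summed level was 2398 to 2587 TPM in Control and 1398 to 1428 TPM with WNK463, and *LYZ* alone stood at 1697 ± 63.1 TPM in Control and 418 ± 14.1 TPM after treatment (n = 3 each, SD). The lower sum thus followed *LYZ* and does not describe the whole list. By edgeR at an adjusted p below 0.05, 5 of the 10 were lower and 4 higher. Those lower included *LYZ*, *ANPEP*, *CD33* and *FLT3*, with log2 fold changes of -2.22, -1.46, -0.38 and -0.20. Those higher were *PTPRC*, *CSF1R*, *HOXA9* and *MEIS1*, with log2 fold changes of 1.20, 0.97, 0.72 and 0.33. Of 10 markers of other cell types, 8 were below 1 TPM in every sample, with *MS4A1*, *HBB* and *EPCAM* at 0. The other two were *PECAM1* and *KRT8*, and the sum of the list was 49.3 to 51.6 TPM in Control and 93.0 to 96.3 TPM with WNK463. The part of these markers in the results below was not tested.

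Stretches of promoter sequence are shown first, because *CDCA7*, *HELLS* and *UHRF1*, which had the largest differences, and *DNMT1* shared a motif there. *DNMT3B* and *TET1* held no match, and their log2 fold changes were -0.86 and -0.82 (standard errors 0.11 and 0.30). *DNMT1* was at -0.78 (standard error 0.04), and its order against these genes changed with the processing. With log2(TPM + 1) *DNMT1* was at -0.60 and *DNMT3B* at -0.54. Without Control 2 *DNMT1* was at -0.78 and *TET1* at -0.60. A part of the motif in the differences was not tested. Windows of 250 bases before to 50 bases after each start were taken from RefSeq (GRCh38.p14), and all 10 members matched by symbol, with 21 windows in all. An E2F motif was searched on both strands in its forms TTTCCCGC, TTTCGCGC, TTTGCCGC and TTTGGCGC. E2F factors are known to control genes of S phase, the period of DNA synthesis. Capitals mark the motif, which reads as its reverse complement where it lies on the strand opposite to the gene. The *HELLS* site directly before the start is in the longer stretch further below. The others, 5 sites of 30 bases each, on the strand of the gene, were as follows.

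CDCA7, plus strand of chr2:173354796-173354825: tgtgtcccaacGCGGGAAAgacagcccgag
HELLS, plus strand of chr10:94545701-94545730: aaccgcaagctGCGCCAAAtctcgcgcagc
UHRF1 at its first start, plus strand of chr19:4909476-4909505: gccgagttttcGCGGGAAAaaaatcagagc
UHRF1 at its next start, plus strand of chr19:4909973-4910002: cccgagcccgaTTTCGCGCgccctgagttc
DNMT1, minus strand of chr19:10194937-10194966: catcggtttccGCGCGAAAagccggggcgc

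The longer stretch upstream of *HELLS*, chr10:94545538-94545787 on the plus strand, is printed because it held the motif at 2 places, the other one directly before the start. The 250 bases are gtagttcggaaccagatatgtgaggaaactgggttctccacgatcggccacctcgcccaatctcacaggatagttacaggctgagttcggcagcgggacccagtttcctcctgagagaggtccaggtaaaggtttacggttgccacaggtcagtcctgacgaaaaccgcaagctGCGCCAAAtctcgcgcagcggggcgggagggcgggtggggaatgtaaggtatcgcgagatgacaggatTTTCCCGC. For contrast, the 250 bases upstream of the first start of *TET2*, chr4:105145625-105145874 on the plus strand, held no such match. They are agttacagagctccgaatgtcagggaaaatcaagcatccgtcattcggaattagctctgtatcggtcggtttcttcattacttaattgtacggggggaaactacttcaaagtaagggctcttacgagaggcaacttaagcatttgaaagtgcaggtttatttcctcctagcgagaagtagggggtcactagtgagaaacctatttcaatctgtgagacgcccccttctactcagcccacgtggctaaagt.

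The E2F motif was found in windows of 4 of the 10 members, *CDCA7*, *HELLS*, *UHRF1* and *DNMT1*, and in none of the windows of *UHRF2*, *DNMT3A*, *DNMT3B*, *TET1*, *TET2* and *TET3*. Across all 35116 RefSeq windows 3.31% held it, and 6.99% of the 9647 tested genes with a window held it in at least 1 of them. It was also in 16 of 29 S phase genes with a window. As only 29 of the 40 genes of that list had one, a comparison of the members with it is void, and the motif is not shown to be particular to the members. In *CDCA7* it began 65 bases before the start, in *HELLS* 76 and 8 bases before, in *UHRF1* 14 and 160 bases before the starts concerned, and in *DNMT1* 2 bases before, so that it ran across the start. The CCAAT box (CCAAT) was in windows of 5 members against 43.3% of tested genes, the GC box (GGGCGG) in 7 members against 76.7%, the E-box (CACGTG) in 3 against 12.8%, and the CHR element (TTTGAA or TTCGAA) in 2 against 15.7%. The only window of *DNMT3B*, chr20:32779602-32779901, lay inside the gene, whose annotated span in GENCODE 29 begins at 32762385. Windows of *HELLS*, *DNMT1* and *UHRF1* also lay inside the annotated spans. Sequence at the outer ends of these genes was therefore not searched. The members have between 1 and 6 windows, which overlap for some genes, and a gene with more windows had more chances of a match. Such a match is a description of the letters and not a binding site. The median ratio of observed to expected CpG was 0.705 in the members' windows and 0.579 in all windows. The window of *DNMT3B*, at its inner start, had the lowest ratio of the members, 0.118, and the third window of *UHRF1* the highest, 1.07.

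**Figure D1:**
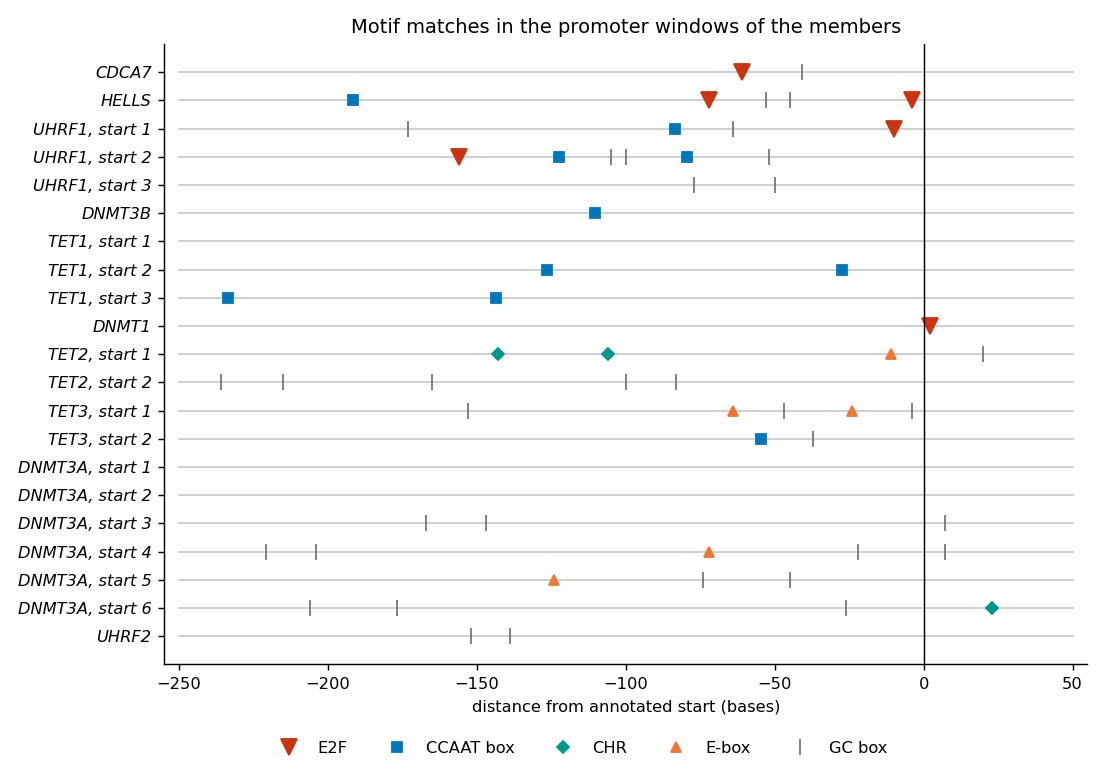
Motif matches in the 21 promoter windows of the members, by distance from the annotated start in bases (0 is the start, and each symbol stands at the centre of its match). Genes are ordered from the lowest log2 fold change (top) to the highest (bottom), and E2F matches (triangles pointing down) appear in windows of *CDCA7*, *HELLS*, *UHRF1* and *DNMT1*.

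To ask how WNK463 altered this set of genes, normalized counts were compared between the groups. Levels are given as CPM (counts scaled to TMM-adjusted library size). A gene was called when its adjusted p was below 0.05 and its log2 fold change was 1 or more in either direction. All 10 members passed the filter on low counts. Of these, 3 were called lower (*CDCA7*, *HELLS* and *UHRF1*), where 5.55% of all tested genes were called lower. No member (0) was called higher, where 9.62% of all tested genes were. Without the limit on the fold change, 8 members were lower, where 35.3% of all genes tested were lower, and 0 were higher, where 35.5% of all genes were higher. The CPM of the groups did not overlap for 7 members, against 73.5% of all genes tested. Since the members were chosen with this comparison known, these shares stand beside each other without a test. The median log2 fold change was -0.80 for the members and 0.02 for all tested genes. The called member nearest the limit was *UHRF1* at -1.47, and the nearest member not called was *DNMT3B* at -0.86.

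**Figure D2:**
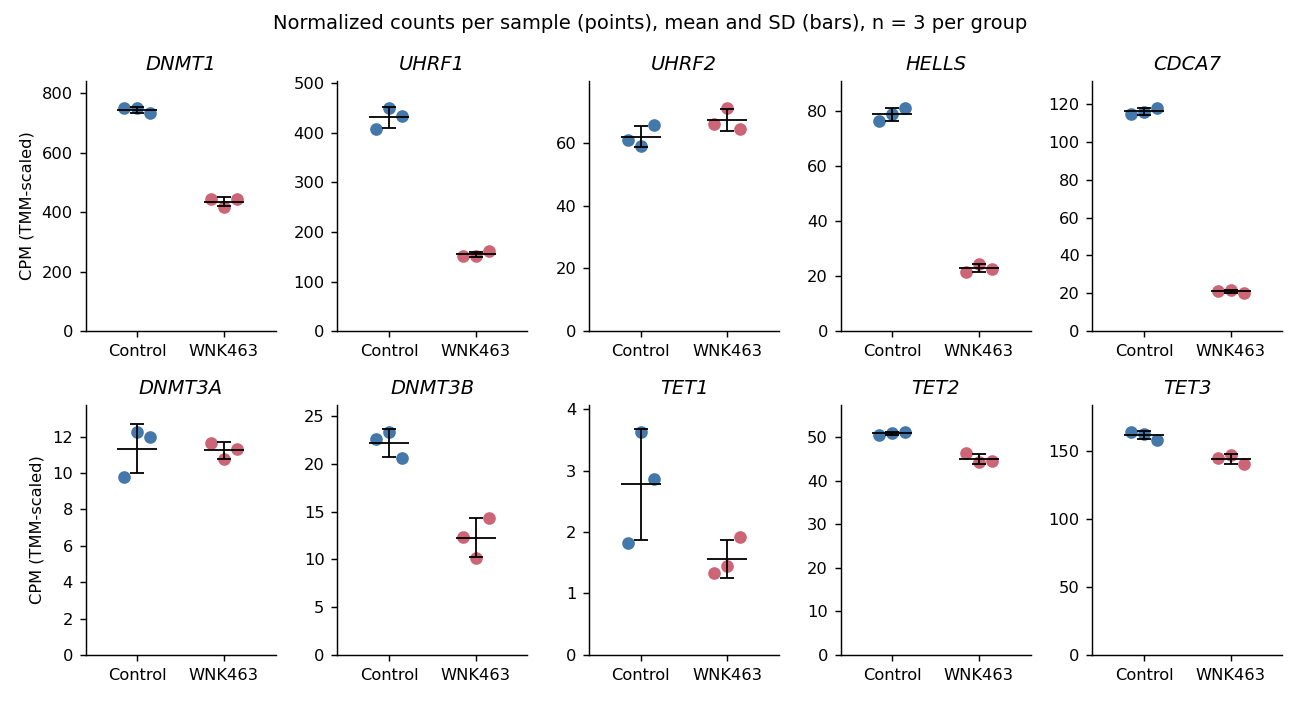
Normalized counts (CPM, TMM-scaled) of the 10 members in each Control and WNK463 sample (points), with mean and SD (bars, n = 3 per group) on axes that start at 0. The groups lie far apart for *CDCA7*, *HELLS* and *UHRF1*, and overlap for *UHRF2*, *DNMT3A* and *TET1*.

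Among the maintenance genes, *DNMT1* (ENSG00000130816, chromosome 19 from 10133345 to 10231286, minus strand, GRCh38), which copies methylation onto the new strand, was the most abundant member. Its counts were 12325, 10919 and 12018 in Control and 7331, 7181 and 6944 with WNK463, so that every treated sample lay below every Control sample. This gave 744 ± 9.70 CPM in Control and 435 ± 14.7 CPM with WNK463 (n = 3 each, SD), a log2 fold change of -0.78 with a standard error of 0.04. *UHRF1* (ENSG00000276043, chromosome 19 from 4903080 to 4962154), the reader that guides DNMT1 to hemimethylated CpG, had 6704, 6559 and 7118 counts in Control and 2521, 2615 and 2522 with WNK463. Its level was 431 ± 21.1 CPM against 155 ± 5.12 CPM (n = 3 each, SD), which left 36.0% of the Control level and a log2 fold change of -1.47 (standard error 0.05). *UHRF2* (chromosome 9 from 6413151 to 6507054), the paralog with the same domain order, showed no such fall. Its counts were 1003, 863 and 1079 in Control and 1096, 1225 and 1012 with WNK463, or 62.0 ± 3.41 and 67.3 ± 3.45 CPM (n = 3 each, SD), and the groups overlapped. The ratio of *UHRF1* to *UHRF2*, both in TPM, was 6.12, 6.95 and 6.22 in Control and 2.13, 1.96 and 2.23 with WNK463. A ratio within a sample does not depend on how libraries are scaled, and it shows that the 2 paralogs differed unequally between the groups.

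The remodeler pair had the lowest fold changes of the set. *CDCA7* (ENSG00000144354, chromosome 2 from 173354820 to 173368997), the zinc finger protein that recruits HELLS, had 1882, 1685 and 1934 counts in Control and 352, 372 and 315 with WNK463. Its level was 116 ± 1.73 CPM and 21.0 ± 0.792 CPM (n = 3 each, SD), so the treated cells held 18.1% of the Control level (log2 fold change -2.46, standard error 0.06). *HELLS* (ENSG00000119969, chromosome 10 from 94501434 to 94613905), the ATPase, had 1253, 1148 and 1328 counts in Control and 357, 418 and 353 with WNK463. Its level was 78.7 ± 2.35 CPM and 22.8 ± 1.39 CPM (n = 3 each, SD), 28.98% of Control (log2 fold change -1.79, standard error 0.07). For both genes the treated samples lay close together and far below Control. The TPM ratio of *HELLS* to *CDCA7* was 0.414 ± 0.00726 in Control and 0.650 ± 0.0304 with WNK463 (n = 3 each, SD), without overlap, so the partner was reduced more than the ATPase.

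The de novo enzymes differed from each other. *DNMT3B* (ENSG00000088305, chromosome 20 from 32762385 to 32809356) had 371, 341 and 338 counts in Control and 204, 175 and 224 with WNK463, and the groups did not overlap. Its level was 22.2 ± 1.43 and 12.3 ± 2.06 CPM (n = 3 each, SD), a log2 fold change of -0.86 (standard error 0.11). *DNMT3A* (ENSG00000119772, chromosome 2 from 25227855 to 25342590) had 161, 179 and 196 counts in Control and 193, 185 and 177 with WNK463, and the groups overlapped. Its log2 fold change was -0.01 with a standard error of 0.12, and the sign was positive, 0.14, with total-count scaling. *DNMT1* made up 94.7 ± 0.202% of the summed TPM of the 3 enzymes in Control and 94.1 ± 0.498% with WNK463 (n = 3 each, SD), so the sum, 279 ± 3.82 and 186 ± 7.24 TPM, followed *DNMT1*. The TPM ratio of *DNMT1* to *DNMT3B* was 25.7 ± 1.597 in Control and 25.8 ± 2.95 with WNK463 (n = 3 each, SD), with overlapping samples.

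The TET genes, whose enzymes oxidize methylcytosine, showed small differences or few counts. *TET3* (chromosome 2 from 73986404 to 74108176), the most abundant of them, had 2702, 2367 and 2598 counts in Control and 2406, 2530 and 2202 with WNK463, or 162 ± 3.08 and 144 ± 3.37 CPM (n = 3 each, SD). *TET2* (chromosome 4 from 105145875 to 105279816) had 831, 743 and 841 counts in Control and 766, 761 and 696 with WNK463, or 50.9 ± 0.346 and 44.98 ± 1.11 CPM (n = 3 each, SD). In CPM the treated samples of both genes lay below Control, with log2 fold changes of -0.16 for *TET3* and -0.18 for *TET2*. This difference depended on the scaling. With total counts in place of TMM the values were -0.01 and -0.03, and in TPM the groups overlapped for both genes. *TET1* (chromosome 10 from 68560656 to 68694482) had 30, 53 and 47 counts in Control and 22, 25 and 30 with WNK463. Its log2 fold change of -0.82 had a standard error of 0.30, the largest of the members, and the groups overlapped. Without Control 1 it was -1.06 and *TET1* passed the limit of the call. The summed TPM of the 3 genes was 35.9 ± 1.04 in Control and 36.1 ± 0.882 with WNK463 (n = 3 each, SD), of which *TET3* made up 70.5 ± 0.885% and 70.5 ± 0.934%.

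**Figure D3:**
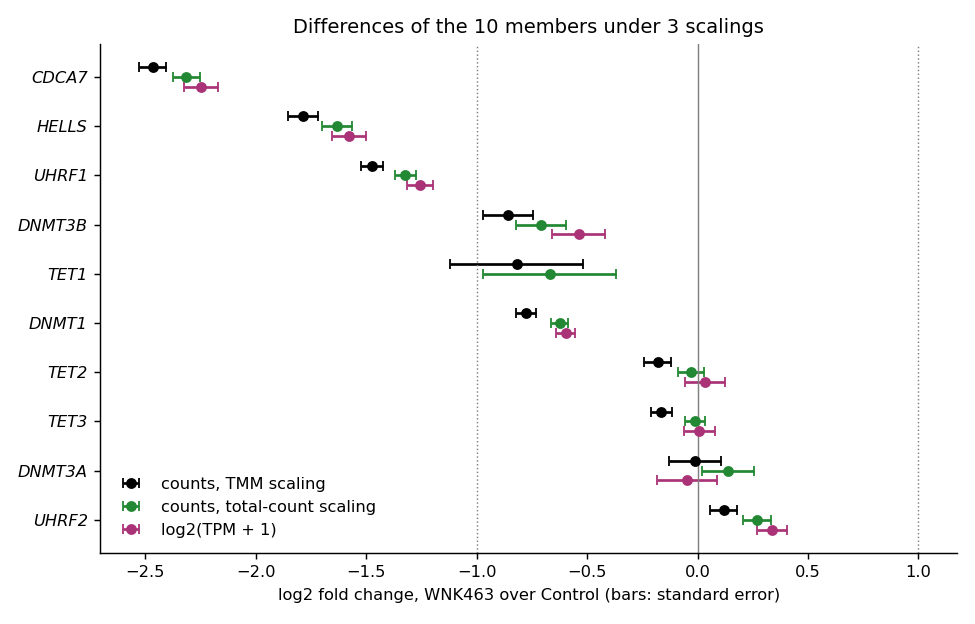
Log2 fold change of WNK463 over Control (x axis, bars are standard errors) for the 10 members with TMM scaling, total-count scaling and log2(TPM + 1), which gave no value for *TET1*. Dotted lines mark the limit of 1 for a call, and *CDCA7*, *HELLS* and *UHRF1* lie beyond it under all 3 scalings while *TET2* and *TET3* move to about 0.

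TMM treated the groups differently from total counts, with factors of 0.944 to 0.952 in Control and 1.05 to 1.06 with WNK463. Over all tested genes, 665 were called lower and 1152 higher with TMM, and 458 lower and 1451 higher with total counts, and the median gene moved by 0.15 on the log2 scale. With total counts the log2 fold changes were -2.31 for *CDCA7*, -1.63 for *HELLS*, -1.32 for *UHRF1*, -0.71 for *DNMT3B* and -0.62 for *DNMT1*. *UHRF2* was at 0.12 with TMM and at 0.27 with total counts, and its TPM values did not overlap, with 32.9 to 35.6 in Control and 41.6 to 45.7 with WNK463. *CDCA7*, *HELLS* and *UHRF1* thus kept the same call under both scalings.

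Levels per transcript length, in TPM, set the members in a different order in each group. In Control the order was *DNMT1* (265 ± 3.72), *UHRF1* (218 ± 14.9), *CDCA7* (88.3 ± 5.35), *HELLS* (36.6 ± 1.61), *UHRF2* (33.9 ± 1.44), *TET3* (25.3 ± 0.929), *DNMT3B* (10.3 ± 0.700), *TET2* (10.03 ± 0.174), *DNMT3A* (4.35 ± 0.200) and *TET1* (0.538 ± 0.180 TPM, SD, n = 3 each). The samples of *HELLS* and *UHRF2* overlapped, as did those of *DNMT3B* and *TET2*, and other neighbours did not. With WNK463 *UHRF2* (43.1 ± 2.26) and *TET3* (25.4 ± 0.762) stood above *CDCA7* (17.8 ± 1.44) and *HELLS* (11.6 ± 0.568), followed by *TET2* (10.3 ± 0.433), *DNMT3B* (6.83 ± 0.953), *DNMT3A* (4.21 ± 0.747) and *TET1* (0.346 ± 0.0662). *DNMT1* (175 ± 5.96) and *UHRF1* (90.6 ± 2.70) remained the highest, and no neighbours overlapped. The TPM ratio of *UHRF1* to *DNMT1* was 0.824 ± 0.0636 in Control and 0.519 ± 0.0222 with WNK463, and that of *DNMT1* to *TET3* was 10.5 ± 0.359 and 6.88 ± 0.392 (n = 3 each, SD), both without overlap.

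Some members share their locus with another gene. In GENCODE 29, *S1PR2* overlaps the annotated span of *DNMT1* and *TBC1D12* overlaps that of *HELLS*, each on the same strand. *S1PR2* had 69 to 92 counts in Control and 159 to 182 with WNK463, and *TBC1D12* had 213 to 294 and 391 to 434, so both were higher where the overlapping member was lower. Both are named because of their position. The non-coding gene AL138759.1 also overlaps *HELLS*, and *UHRF2* and *TET2* have annotated antisense genes. None of these was analysed here, and reads of the opposite strand cannot be told apart without strand information.

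Genes that work with these enzymes were then counted, by edgeR's quasi-likelihood test at an adjusted p below 0.05 over all tested genes. At this limit 35.3% of all tested genes were lower and 35.5% higher. These shares stand beside the counts of each list below without a test. Of 10 maintenance partners, 6 were lower and 1 (*KAT5*, log2 fold change 0.13, adjusted p = 0.035) was higher, with a median log2 fold change of -0.35. The call of *KAT5* was lost with DESeq2, without the filter on low counts, with a replicate block, and when any single sample other than Control 1 was left out. *PCLAF*, the PCNA-associated factor whose ubiquitinated form recruits DNMT1, fell from 67.5 ± 2.38 to 33.1 ± 4.96 CPM (n = 3 each, SD), with a log2 fold change of -1.03 and an adjusted p = 4.8e-09. In TPM its levels were 89.2 ± 7.71 and 61.3 ± 8.47 (n = 3 each, SD), a smaller difference than in CPM. The sliding clamp *PCNA*, DNA ligase *LIG1* and the H3K9 methyltransferase *SUV39H1* fell by 0.82, 0.78 and 0.75 on the log2 scale. *USP7*, which removes ubiquitin from UHRF1 and DNMT1, did not pass (log2 fold change -0.10, adjusted p = 0.057).

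The paralog of CDCA7, *CDCA7L*, fell from 99.6 to 43.96 CPM (log2 fold change -1.18, standard error 0.06, adjusted p = 1e-11). The TPM ratio of *CDCA7* to *CDCA7L* was 1.11 ± 0.117 in Control and 0.442 ± 0.0665 with WNK463 (n = 3 each, SD), so *CDCA7* was reduced more than its paralog in every treated sample. *ZBTB24*, a transcription factor and ICF syndrome gene that controls *CDCA7*, fell by 0.44 on the log2 scale (adjusted p = 1e-04), from 40.2 to 29.6 CPM. *TRDMT1*, a DNMT homolog that methylates tRNA, had a log2 fold change of -0.13 (adjusted p = 0.51). *DNMT3L*, the catalytically inactive partner of the de novo enzymes, had at most 3 counts in any sample and was not tested.

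The list of methyl-CpG readers and members of their families went both ways, with 2 of 8 lower and 4 higher (median 0.12). *ZBTB33*, which encodes the reader Kaiso, rose from 199 to 425 CPM (log2 fold change 1.09, adjusted p = 3.3e-12), and *ZBTB38*, of the same family, rose by a log2 fold change of 0.83. *MBD3*, listed as a member of the MBD family and not as a proven reader, and *MBD1* fell by 0.56 and 0.43 on the log2 scale. In TPM the differences were smaller, with *MBD3* at 124 ± 9.92 in Control and 98.9 ± 5.63 with WNK463. *MBD1* was at 76.0 ± 0.647 and 71.0 ± 2.87 TPM (n = 3 each, SD). With total counts 6 readers were higher and 2 lower.

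Of 15 tested genes that supply or regulate TET enzymes or complete base excision after oxidation, 7 were lower and 2 higher, with a median of -0.20. *IDH2*, the mitochondrial isocitrate dehydrogenase that makes the TET cosubstrate 2-oxoglutarate, fell from 410.1 to 181 CPM (log2 fold change -1.18, standard error 0.05, adjusted p = 1.3e-12), while *IDH1*, the cytosolic enzyme, did not pass (-0.08, adjusted p = 0.24). *TDG*, the glycosylase that excises oxidized methylcytosine, fell by 0.58 and *PARP1* by 0.46 on the log2 scale, and *GADD45A* rose by 0.49. With total counts 5 were lower and 6 higher, so the balance of this list depended on the scaling. *GADD45G* and *CXXC4* did not pass the filter on low counts.

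Of 9 genes listed for the supply or recycling of S-adenosylmethionine, the methyl donor, 2 were lower and 5 higher (median 0.13), and 1 was lower and 7 higher with total counts. The 5 include *AHCYL1* and *AHCYL2*, which were listed as homologs of *AHCY* and are not shown here to act in this supply. *AHCYL2*, a homolog of adenosylhomocysteinase, rose from 17.98 to 45.6 CPM (log2 fold change 1.34, adjusted p = 5.4e-11), and *AHCY*, which clears the inhibitory by-product adenosylhomocysteine, fell by 0.36 on the log2 scale. *MAT2B*, a subunit of methionine adenosyltransferase, rose by a log2 fold change of 0.36.

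Germline genes that are known to be silenced by promoter methylation in other tissues were mostly undetected in both groups. Of 20 such genes, 10 had no count in any sample and 18 had 5 counts or fewer in every sample, which leaves no room to see a small change at this depth. The other two passed the filter on low counts, but could do so only through their WNK463 samples, so their direction was fixed by the filter and is no support for a rise of the list. A stricter filter of 10 counts per sample left 0 genes of the list. *TKTL1*, a transketolase-like gene, had 1, 3 and 3 counts in Control and 42, 35 and 43 with WNK463. Taken against a floor of 3 counts per library, it was at least 12.8-fold higher with WNK463, which is given as a description. *PIWIL2*, a PIWI protein of the germline, had 0, 11 and 1 counts in Control and 19, 19 and 11 with WNK463. The edgeR call of *PIWIL2* was lost without Control 1, Control 3, WNK463 1 or WNK463 2. Because of the filter, no call of either gene is used as support.

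A list of 40 genes used to mark S phase, from which *UHRF1*, *HELLS* and *CDCA7* had been removed as members, moved in the same direction. All 40 passed the test as lower, with a median log2 fold change of -1.32. With total counts 38 did so, and with limma on log2(TPM + 1) 37. When a log2 fold change of -1 or less was also required, 27 were lower. *CHAF1B*, *MCM5*, *GINS2* and *CDC6* had the lowest values, -2.68, -2.38, -2.32 and -1.96, so *CDCA7* at -2.46 lay among them, while *DNMT1* at -0.78 lay near *PCNA* at -0.82, which both this list and the maintenance partners hold. The part of a changed share of cells in S phase in the members' differences was not tested.

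**Figure D4:**
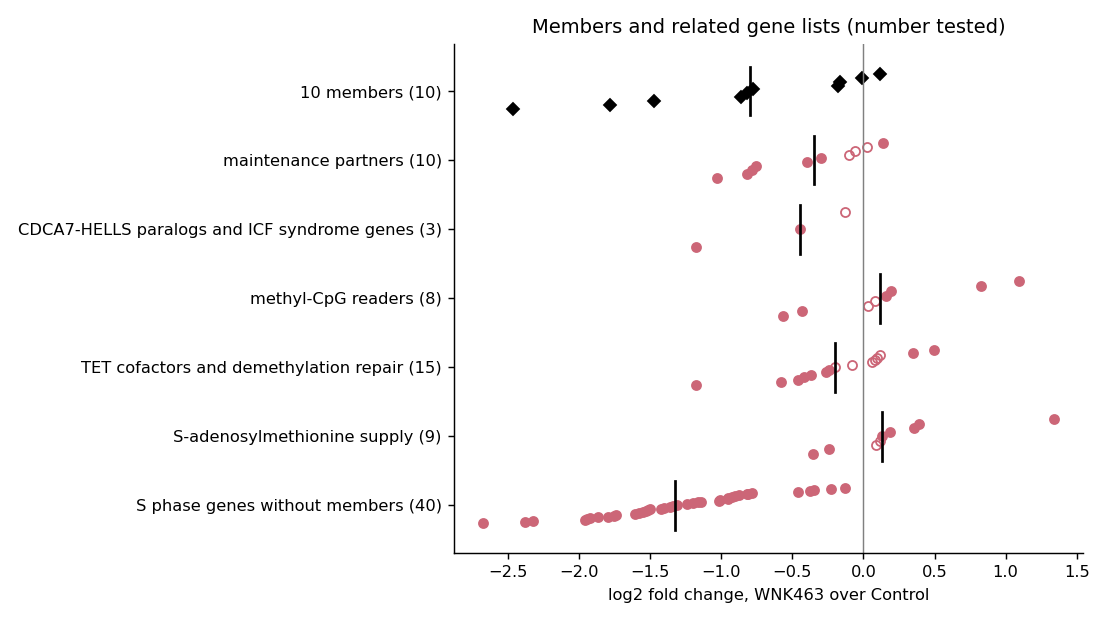
Log2 fold change of WNK463 over Control for the 10 members (black diamonds, not tested) and for tested genes of 6 related lists (filled circles have an adjusted p below 0.05 by edgeR, open circles do not), with the median of each list as a vertical line. The S phase genes lie below 0 throughout, and the readers and the S-adenosylmethionine genes lie on both sides of 0.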

How the data were processed

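RNA-seq was made from 3 Control and 3 WNK463 samples of MV4-11 cells, and mRNA was enriched with capture beads. The authors deposited estimated counts per gene as whole numbers and TPM values (abundance per transcript length, with the same total in each library) for each sample. The submitters' processing notes list fastp, Bowtie2, HISAT2, StringTie, RSEM, DESeq2, edgeR and GRCh38, and the role and version of each tool are not given in the sources used here. The log2 fold change, the p-value and the FDR deposited by the authors are their own comparison and were not used. The kit's strandedness is not given.

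Counts were tested in edgeR 4.0.16 (R 4.3.3, quasi-likelihood test with TMM scaling, genes kept by filterByExpr, Benjamini-Hochberg adjustment over all 11973 tested genes). Each standard error was obtained from the log2 fold change and the F statistic (size of the fold change over the root of F). The procedure was tested on simulated data. Nothing states that samples with the same label came from separate cultures, so p-values measure the spread between these samples, which may be technical. Replicates differed by more than sampling noise (chi-square per degree of freedom from 2.66 to 7.42).

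The 10 members, the gene lists and the motifs were chosen with earlier results of these data known. From each list, up to 4 genes with the largest absolute log2 fold change among those passing the test were named, together with all genes of the list of paralogs and ICF syndrome genes. A gene that this rule selects is not reported here. Any other gene named was chosen after its values were seen. Alternatives were DESeq2 1.42.0, total-count scaling, RLE size factors, other filters and thresholds, limma 3.58.1 on log2(TPM + 1) and log2(TPM + 0.1), the replicate number as a block, and each sample left out in turn. Promoter windows were taken from RefSeq (GRCh38.p14) and gene positions from GENCODE 29.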

Additional observations from a re-analysis of the deposited data

How the results depend on the processing

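The number of members called lower was 3 to 4 with each sample left out, 3 in the other alternatives that kept the limit on the fold change, and 8 without that limit. The added call came without Control 1, where *TET1* had a log2 fold change of -1.06. None was called higher in any alternative. *DNMT1*, *UHRF1*, *DNMT3B*, *HELLS* and *CDCA7* were lower and *UHRF2* higher in all 14 alternatives, and *TET1* was lower in the 12 that gave it a value. *TET2* and *TET3* were lower in 12 of 14 and changed sign with limma on TPM, at 0.032 and 0.0078 with log2(TPM + 1) and at 0.035 and 0.0081 with log2(TPM + 0.1). *DNMT3A* was negative in 9 and positive in 5. Total-count scaling shifted the median gene by 0.15 on the log2 scale.

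Of the list counts, 204 of the counts run, those of the members included, stayed within 1.5 times the reported value and 36 did not. With total-count scaling, 2 maintenance partners and 6 TET cofactor or repair genes were higher, and 1 gene of S-adenosylmethionine supply was lower. With limma on TPM, under both pseudocounts, the numbers were 2 maintenance partners higher, 1 methyl-CpG reader lower, 5 TET cofactor or repair genes higher, 1 S-adenosylmethionine gene lower and 1 germline gene higher. No maintenance partner was higher (0) with DESeq2, without the filter on low counts or with the replicate block. With at least 10 counts in every sample, 0 germline genes were left to be higher. With each sample left out, 0 to 1 maintenance partners (1 only without Control 1) and 1 to 2 germline genes were higher. When a log2 fold change of 1 or more in either direction was also required, maintenance partners had 1 lower and 0 higher, paralogs 1 lower, readers 0 lower and 1 higher, TET cofactors 1 lower and 0 higher, and S-adenosylmethionine genes 0 lower and 1 higher. The cause of these changes was not tested.

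Equal replicate numbers went with no shared deviation (correlations across genes of 0.01, 0.03 and -0.07), so the samples were treated as unpaired. Adding a replicate block to the fit gave 663 genes called lower and 1155 higher, against 665 and 1152 without it.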
